A study of Arabidopsis thaliana with 6 samples.

Results

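In hybrid embryos of Arabidopsis thaliana, 18 of the 23874 genes with deposited values were close to unread up to the 8-cell stage and were read in both libraries of the 32-cell stage. They were chosen by their level in RPM (the reads of a gene scaled to the size of its library, counted as all reads that matched the genome and transcript models). The level had to be at most 0.5 RPM in each of the 4 libraries of the 1-cell/2-cell and 8-cell stages and at least 3 RPM in both 32-cell libraries. A gene absent from a list of values was taken as 0. In all, 20 genes met these values, and 2 of them are not analysed here. The RPM of the 6 libraries therefore chose the genes, and every level and every difference between stages given for them is a description with no test. Of their measured values, only the balance between alleles was not used in the choice.

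Poly(A) RNA was sequenced from embryos of crosses between a pair of inbred accessions, Col-0 and Cvi-0, made in both directions after the flowers had been emasculated. The question of the study was how much each parental genome adds to the RNA of the young embryo. Embryos were dissected by hand, washed and pooled by 20, about 40 h after pollination for the 1-cell/2-cell stage, 64 h for the 8-cell stage and 78 h for the 32-cell stage, and their RNA was amplified linearly. There were 6 groups, 3 stages by 2 directions of the cross, with 1 library each. Each stage thus has a Col-0 x Cvi-0 and a Cvi-0 x Col-0 library. All embryos were first-generation hybrids, so every group carried 1 genome of each accession, and the mother is the parent named first by the usual convention. Values below follow that order of stages, with Col-0 x Cvi-0 before Cvi-0 x Col-0 within each stage.

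Between the 8-cell and the 32-cell stage an Arabidopsis embryo separates its outer protoderm from inner cells, sets up the first vascular and ground tissue cells, and prepares the positions of the shoot and root meristems. Much of this depends on transcription factors, which switch sets of genes on in particular cells, and on small secreted peptides, which bind receptor kinases on neighbouring cells. The first cuticle, a layer of cutin with waxes made from very long fatty acids, is also laid down on the embryo surface in this period.

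Reads over genes numbered between 10299142 and 14805499 per library, so that 1 read was worth between 0.0601 and 0.0826 RPM. All 6 listed early embryo genes were read, and their summed level lay between 811 and 3670 RPM. At the 32-cell stage PDF1 alone gave 3180 and 2230 RPM of the sums of 3670 and 2730 RPM. The summed level of 15 seed coat genes was between 60.1 and 85.7 RPM in 5 libraries and 154 RPM in 32-cell Cvi-0 x Col-0. The 11 endosperm genes summed to 52.2 and 45.3 RPM at the 1-cell/2-cell stage and to 12.2 and 17.0 RPM at the 32-cell stage. SUC5 alone gave 44.8 and 40.9 RPM of the earlier sums and 2.15 and 8.47 RPM of the later ones. The fall of the sums was thus that of SUC5, and the rest of the list did not fall in sum. The 7 pollen and sperm genes summed to 106 RPM in 1-cell/2-cell Col-0 x Cvi-0, against at most 13.9 RPM in the other libraries, with HTR10 and DUO1 at 0 in all 6. VGD1 and VGDH1 gave 69.1 and 30.9 RPM of that sum of 106 RPM. None of the 18 genes belonged to these lists, and the part of other tissues in their levels was not tested. In pooled embryos, fewer cells of a type and less RNA per cell cannot be told apart.

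At the 32-cell stage the 18 genes together made 158 RPM in Col-0 x Cvi-0 and 101 RPM in Cvi-0 x Col-0. Their summed level before that was 0.865 and 1.01 RPM at the 1-cell/2-cell stage and 1.53 and 3.74 RPM at the 8-cell stage. In reads, the sums were 11, 13, 18.5 and 55.5 in the earlier libraries and 2566 and 1680.5 in the 32-cell libraries. At the 8-cell stage, Cvi-0 x Col-0 embryos thus held more early reads of these genes than the other 3 earlier libraries together. Of the 18 genes, 12 had reads in that 8-cell library, against 5, 4 and 7 in the other earlier libraries. Over all 23874 genes, 20543 had reads there, against 19828, 19143 and 18831. That library also had the most total reads of the 4 (14826432), and the choice capped each early value at 0.5 RPM. Among the 18 genes, 3 had 0 reads in all 4 earlier libraries, AT3G06778, AT1G78860 and WIP5. Another 11 genes had more reads at the 8-cell than at the 1-cell/2-cell stage, and 4 had fewer.

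**Figure D1:**
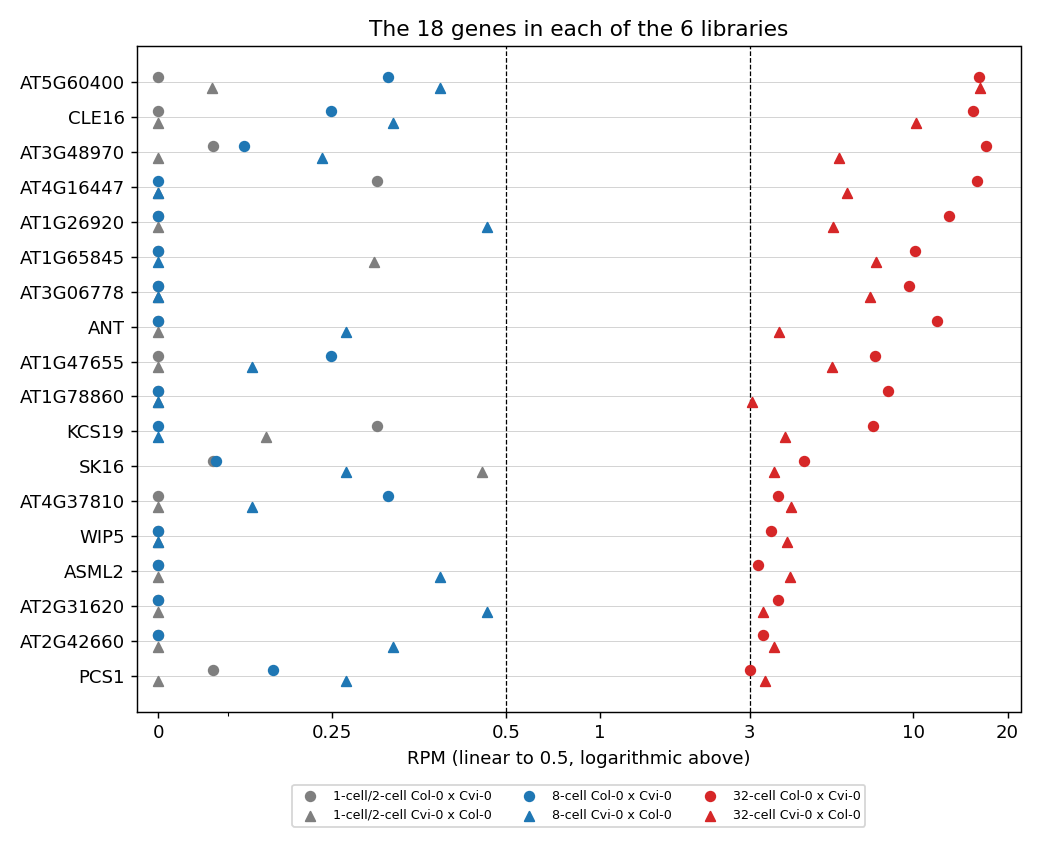
Level in RPM (horizontal axis, linear to 0.5 and logarithmic above) of each of the 18 genes (rows, by mean 32-cell level) in the 6 libraries. Circles are Col-0 x Cvi-0 and triangles Cvi-0 x Col-0, grey marks the 1-cell/2-cell stage, blue the 8-cell stage and red the 32-cell stage, points at 0 can hide each other, and dashed lines show the 0.5 and 3 RPM limits that chose the genes. The 32-cell points run from 3.01 RPM (PCS1) to 17.1 RPM (AT3G48970).

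A pair of secreted peptides stood among the genes. CLE16 encodes a member of the CLAVATA3/ESR-related family, whose short peptides are ligands of receptor kinases in meristems and vascular tissue. CLE16 was at 0 and 0 RPM at the 1-cell/2-cell stage, 0.248 and 0.337 RPM at the 8-cell stage, and 15.5 and 10.2 RPM at the 32-cell stage. Pooled over libraries, the 32-cell level was 84.0 times the earlier level, with a counting interval of 42.2 to 196. Its annotated transcript overlaps AT2G01510 on the same strand, which stayed between 0 and 1.32 RPM, so reads in the overlap are uncertain. AT4G37810 encodes an EPIDERMAL PATTERNING FACTOR-like peptide, of a family best known for its role in the spacing of stomata through receptors of the ERECTA group. It was at 0 and 0, 0.33 and 0.135, and 3.69 and 4.08 RPM, a pooled ratio of 34.0 (15.2 to 94.5). Both 8-cell libraries held a few reads of each peptide gene, and their 32-cell values lay far above them, as the choice required. Intervals of ratios and shares are at 95%. They cover the error of counting alone, because copies made by amplification are not separate molecules. The ratios compare the values that chose the genes, and their intervals take no account of that choice.

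The other members of both peptide families had mixed histories. Of 31 genes named CLE or CLV3, 16 had reads in some library and 3 reached 3 RPM in both 32-cell libraries. Besides CLE16 these were CLE17, at 4.96 to 9.33 RPM before and 17.1 and 10.7 RPM at the 32-cell stage, and CLE25, at 0.865 and 0.388, 4.05 and 7.82, and 16.9 and 7.39 RPM. Of 12 genes annotated in the EPIDERMAL PATTERNING FACTOR family, 5 reached 3 RPM in both 32-cell libraries, and 4 of these were over 0.5 RPM earlier. AT5G10310, which the annotation gives as the closest relative of AT4G37810, was at 2.91 and 1.17, 8.34 and 7.86, and 14.4 and 16.2 RPM. That relative was thus read from the first stage on, at a higher level than AT4G37810 in every library. AT3G13898 of the same family came close to the choice, at 0.0787 and 0, 0 and 1.28, and 27.8 and 8.23 RPM.

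AT2G31620 is annotated in a receptor-like protein kinase-related family, and the annotation does not say that it is a receptor. Its level was 0 and 0, 0 and 0.472, and 3.69 and 3.30 RPM, so that its early reads came from 8-cell Cvi-0 x Col-0 alone. AT3G21960, its closest relative by the annotation, had 13.3 RPM in 1-cell/2-cell Col-0 x Cvi-0 but at most 0.809 RPM in the other libraries.

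The annotation gives 5 of the genes as likely transcription factors with a DNA-binding or CCT domain. ANT (AINTEGUMENTA) encodes an AP2-domain factor that promotes growth of organ primordia and ovules. Its level was 0 and 0, 0 and 0.27, and 11.9 and 3.72 RPM. Its ratio between the 32-cell libraries was the farthest from 1 among the 18 genes, with 0.312 times as much in Cvi-0 x Col-0. AT1G47655, a Dof zinc finger factor of a class found in plants, was at 0 and 0, 0.248 and 0.135, and 7.56 and 5.50 RPM. WIP5 encodes a zinc finger factor with a WIP domain, a family in which NTT, WIP4 and WIP5 act together in forming the embryonic root. WIP5 was at 0 in all 4 earlier libraries and at 3.50 and 3.96 RPM at the last stage, which is at least 65.4-fold higher against a floor of 3 reads over the earlier libraries. AT2G42660, annotated as a homeodomain-like protein, was at 0 and 0, 0 and 0.337, and 3.32 and 3.60 RPM. ASML2, a CCT-domain activator of sugar-responsive genes, was at 0 and 0, 0 and 0.405, and 3.20 and 4.05 RPM. In ANT, AT2G42660 and ASML2 the early reads again came from 8-cell Cvi-0 x Col-0 alone.

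Members of the family of ANT were read at different stages. Of 7 genes named ANT, AIL, PLT or BBM, 6 reached 3 RPM in both 32-cell libraries, and 4 were at 3 RPM or more in every earlier library. PLT2, a root meristem factor, was at 86.1 and 86.2, 56.4 and 66.1, and 39.7 and 53.2 RPM, and BBM, an embryo identity factor, at 27.8 and 31.4, 17.5 and 20.1, and 17.3 and 20.4 RPM. AIL6 lay between, at 0.59 and 0.738, 6.48 and 7.49, and 10.4 and 10.2 RPM, and AIL7 stayed low, at 0.472 and 0.544, 0.784 and 1.18, and 1.54 and 1.41 RPM. The closest relative of ANT by the annotation, AT1G72570, was at 0 in all 6 libraries. Of 36 Dof genes, 9 reached 3 RPM in both 32-cell libraries, and 8 of these were over 0.5 RPM in an earlier library. AT5G66940, the closest relative of AT1G47655, was at 22.8 and 36.5, 82.1 and 54.3, and 103 and 42.0 RPM. Of 6 genes with a WIP domain, 3 reached that level, and WIP4, the closest relative of WIP5, was at 1.06 and 0.0774, 7.39 and 6.51, and 16.1 and 26.6 RPM. NTT, the remaining partner, was at 2.28 and 0, 3.96 and 9.64, and 3.93 and 9.55 RPM. The choice held WIP5 to 0.5 RPM or less before the 32-cell stage, so no order among the 3 is read from these values.

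Enzymes and transport proteins made a further group. AT3G48970, of the heavy metal transport and detoxification superfamily, was at 0.0784 and 0, 0.124 and 0.236, and 17.1 and 5.79 RPM. KCS19 encodes a 3-ketoacyl-CoA synthase, the enzyme class that starts each round of elongation of very long fatty acids. It was at 0.314 and 0.155, 0 and 0, and 7.44 and 3.90 RPM, with its few early reads at the 1-cell/2-cell stage. Of 21 genes named KCS, 11 reached 3 RPM in both 32-cell libraries, and 6 were at 3 RPM or more in all earlier libraries, such as KCS10 at 58.5 to 130 RPM before and 173 and 150 RPM at the 32-cell stage. KCS12, the closest relative of KCS19, was at most 0.36 RPM in any library. PCS1 encodes an aspartyl protease known to be needed for cell survival in embryos, and was at 0.0787 and 0, 0.165 and 0.27, and 3.01 and 3.36 RPM. PCS1 was the lowest of the 18 genes in Col-0 x Cvi-0 at the 32-cell stage.

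Proteins that act on other proteins or on sugars included AT3G06778, AT1G78860 and SK16. AT3G06778 has a DnaJ domain, found in partners of heat shock chaperones, and was at 0 in the 4 earlier libraries and at 9.68 and 7.27 RPM at the last stage, which is at least 148-fold higher. AT1G78860 encodes a lectin that binds mannose, and was at 0 in the 4 earlier libraries and at 8.33 and 3.06 RPM after, at least 99.2-fold higher. Of the 30-base words of its transcript, 7.95% occur elsewhere in the genome. Only unique matches were kept, so reads of AT1G78860 from these words may be missing. AT1G78850, its closest relative, was at 0.787 and 0, 0 and 0, and 9.50 and 1.32 RPM, which is the same order of libraries at the 32-cell stage. SK16 encodes a SKP1-like subunit of ubiquitin ligases and was at 0.0787 and 0.466, 0.0826 and 0.27, and 4.49 and 3.60 RPM. SK16 had the smallest pooled ratio of the 18 genes, 17.7 (9.79 to 35.1). Of 21 SKP1-like genes, 7 reached 3 RPM in both 32-cell libraries, and the other 6 were at 3 RPM or more in all earlier libraries, among them SKP1 itself at 421 to 536 RPM throughout.

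The remaining 4 genes have little or no annotated function. AT5G60400, an uncharacterized protein, was at 0 and 0.0777, 0.33 and 0.405, and 16.2 and 16.3 RPM. It overlaps AT5G60390 on the other strand, which was at 6270 to 7690 RPM in the 6 libraries. The libraries kept the strand, per the labels, but whether counting used it is not given in the sources used here, so the level of AT5G60400 is uncertain. AT4G16447, also uncharacterized, was at 0.315 and 0, 0 and 0, and 16.0 and 6.13 RPM. AT1G65845, the third uncharacterized protein, was at 0 and 0.311, 0 and 0, and 10.1 and 7.60 RPM, and overlaps AT1G65840 on the other strand, at 14.2 to 32.8 RPM. AT1G26920, annotated as a CCHC zinc finger protein, was at 0 and 0, 0 and 0.472, and 13 and 5.53 RPM. Its closest relative, AT1G69760, was at 0 and 0, 0 and 0.202, and 2.77 and 1.56 RPM, so that both were read mainly at the 32-cell stage.

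Per kilobase of annotated transcript, the mean 32-cell level ran from 1.72 RPM per kb (PCS1) to 15.8 RPM per kb (AT4G16447), with a median of 5.21. Whether reads scaled with transcript length after the amplification was not tested, so this order of the genes is uncertain. AT5G60400 (13), AT1G65845 (11.4), AT3G48970 (10.8) and CLE16 (9.69 RPM per kb) followed the highest, while ANT was at 3.63 RPM per kb. At the limit of 0.5 RPM in the earlier libraries, the genes just inside were AT1G26920 and AT2G31620 (both 0.472 RPM) and SK16 (0.466 RPM). Just outside were YAB5 (0.54 RPM), AT3G57010 (0.661 RPM) and AT1G16750 (0.708 RPM). At the limit of 3 RPM in the lower 32-cell library, PCS1 (3.01), AT1G78860 (3.06) and ASML2 (3.20 RPM) lay just inside. CYP81F2 (2.94), AT1G07440 (2.79) and ERF9 (2.7 RPM) lay just outside.

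In a fit of stage and cross to all 17478 genes with enough reads (edgeR quasi-likelihood test, Benjamini-Hochberg adjustment), 2.8% of genes were higher at the 32-cell stage than at the mean of the earlier stages and 1.69% were lower. All 18 genes were in that fit and 13 were called higher, with log2 differences of 4.49 to 9.95 over the 18, and a median of 7.16 (6.87 with the 3 genes at 0 early reads set to their bound) against 0.02 over all genes tested. The choice used the same contrast, so nothing is read from this count. SK16, AT2G31620, AT2G42660, ASML2 and PCS1 were not called, with a highest adjusted p of 0.0675 in edgeR. No group had a replicate, so the reciprocal crosses served as repeats, and these p-values measure the spread left in the fit, which may be technical.

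The same fit shows which known genes of embryo patterning rose beside them. None of the 18 genes is on any of the 13 lists, which were chosen with earlier results of these data known. Of 9 shoot and boundary genes tested, 2 rose, both of them boundary factors of the NAC family, and the median log2 difference over the list was 3.11. CUC1 was at 0 and 0.155, 0 and 3.88, and 54.9 and 16.2 RPM (log2 difference 6.94 ± 1.33 SE, edgeR adjusted p = 0.0323). CUC2 was at 0 and 0, 0.0826 and 2.80, and 9.10 and 6.88 RPM (6.79 ± 1.4, edgeR adjusted p = 0.0488). In both, the 8-cell reads lay almost wholly in Cvi-0 x Col-0, the library that also held most early reads of the 18 genes.

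Of 13 organ polarity genes, 5 rose (median log2 difference of the list 1.54). The 4 with the largest change were YAB5, a YABBY factor of the lower leaf side (log2 difference 5.42 ± 0.71), KAN2 (4.22 ± 0.87), ETT (3.05 ± 0.31) and PHV (2.45 ± 0.51). YAB5 was at 0.393 and 0.0774, 0.248 and 0.54, and 23.3 and 6.34 RPM, which missed the choice by its 8-cell Cvi-0 x Col-0 value. Of 18 root and vascular genes, 7 rose (median 2.13), led by JKD (6.26 ± 0.87), MGP (5.98 ± 1.33), TMO6 (5.78 ± 0.60) and SHR (4.20 ± 0.62), all transcription factors of the ground tissue or vascular lineage. JKD was at 0.354 and 0, 0.0826 and 1.08, and 26.6 and 18.9 RPM. MGP was at 0.0787 and 0, 0.0826 and 0, and 3.32 and 1.62 RPM, below the choice in its last library only. Of 21 epidermis and cuticle genes, 6 rose (median 0.81), among them CER6 (3.86 ± 0.34), DCR (3.76 ± 0.41), CYP86A2 (3.22 ± 0.33) and LACS2 (1.78 ± 0.23), which make waxes and cutin.

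Of 14 auxin genes, 2 rose, the auxin carrier LAX2 (log2 difference 3.49 ± 0.38) and the auxin synthesis gene TAR2 (3.10 ± 0.60), and the median of the list was 1.08. Of 14 gibberellin and cytokinin genes, 3 rose (median 3). GA3OX2, which makes active gibberellin, was at 0 in the 4 earlier libraries and at 6.88 and 1.56 RPM, and GA2OX2, which inactivates gibberellin, was at 0 and 0, 2.31 and 5.67, and 64.0 and 28.9 RPM (edgeR adjusted p = 0.0377 and 0.0055). ARR7, a cytokinin response regulator, rose by 4.24 ± 0.61 on the log2 scale. Of 13 maturation and storage genes, 0 passed the edgeR test (median -2.26), with 7 at an unadjusted p under 0.05 and 4 called by DESeq2, and of 18 photosynthesis genes RBCS2B fell by 5.09 ± 0.69 on the log2 scale and 0 rose. The median of the photosynthesis list was 0.91, with 8 genes at an unadjusted p under 0.05 and 5 called by DESeq2, and its summed 32-cell level was 557 RPM in Col-0 x Cvi-0 and 188 RPM in Cvi-0 x Col-0. Of 6 early embryo genes, PDF1, a protodermal gene, rose (3.09 ± 0.22), while the median of the list was -0.91, with 5 at an unadjusted p under 0.05 and 4 called by DESeq2. The log2 differences of WOX2, WOX8 and WOX9, homeobox genes of the first divisions, were -1.66, -1.53 and -1.11, and edgeR called none of these 3. Of 12 seed coat genes TT6 rose (1.57 ± 0.31, median of the list 0.79), and of 5 endosperm genes SUC5 fell, by 2.46 ± 0.51 on the log2 scale, with a list median of 0.50. Of 3 pollen and sperm genes tested (median -3.25), 0 passed the edgeR test, with 2 at an unadjusted p under 0.05 and 2 called by DESeq2. The 1 egg cell gene tested (log2 difference -0.48) did not pass by either tool, nor at an unadjusted p under 0.05. Over all 17478 genes tested, 3981 had an unadjusted p under 0.05 in edgeR, and DESeq2 called 2256. In the lists above, DESeq2 called 5 shoot and boundary, 7 organ polarity, 9 root and vascular, and 12 epidermis and cuticle genes. Its calls were 5 for auxin, 5 for gibberellin and cytokinin, 1 for seed coat and 2 for endosperm.

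The 32-cell libraries of the crosses differed in how strongly the 18 genes were read. Both values entered the choice of the genes, so their ratio is a description with no test. The ratio of Cvi-0 x Col-0 over Col-0 x Cvi-0 had a median of 0.75 and ranged from 0.312 (ANT) to 1.27 (ASML2). It was below 1 in 12 of the 18 genes (66.7%), against 32.4% of all 12569 genes with at least 3 RPM in both 32-cell libraries, whose median was 1.17. It was 0.5 or less in 5 genes (27.8%), against 1.62% of all those genes. These were ANT, AT3G48970 (0.340), AT1G78860 (0.368), AT4G16447 (0.382) and AT1G26920 (0.424). Among the 5563 genes with a mean level in the range of the 18, the median was 1.23, with 28.1% below 1 and 1.94% at 0.5 or less. The 462 other genes that rose in the stage fit and had at least 3 RPM in both had a median of 0.883, with 64.1% below 1 and 10.4% at 0.5 or less. There was 1 library per cross, so the difference has no replicate check, and cross, library and the exact age of the pool cannot be told apart.

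**Figure D2:**
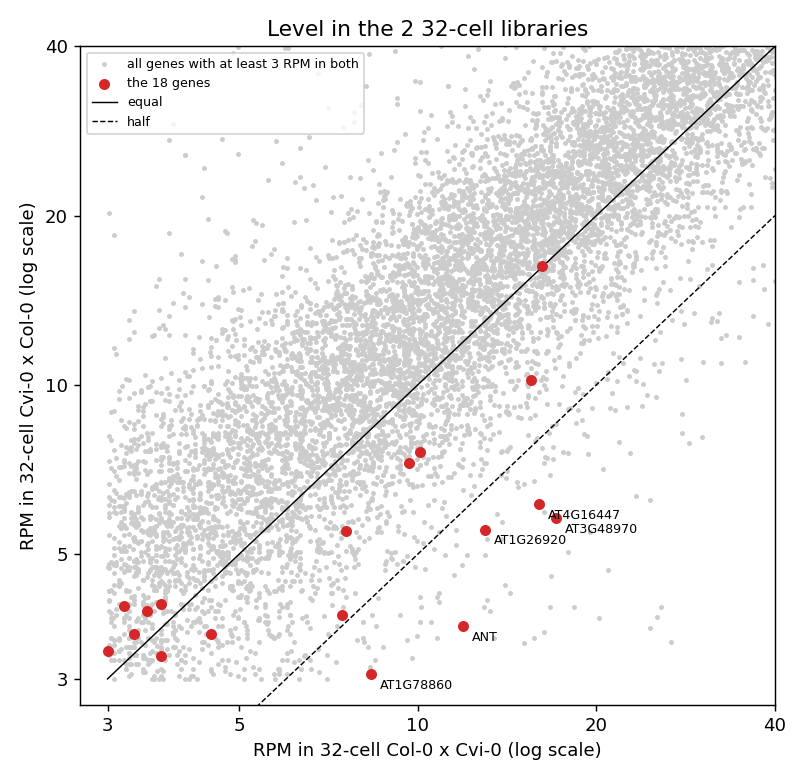
Level in RPM of each gene in 32-cell Col-0 x Cvi-0 (horizontal axis, log scale) and 32-cell Cvi-0 x Col-0 (vertical axis, log scale), between about 3 and 40 RPM. Grey points are genes with at least 3 RPM in both libraries, red points are the 18 genes, and the lines mark equal levels and a ratio of 0.5. The 5 named genes lie under the dashed line, and 12 of the 18 lie under the solid line.

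Of the 4588 genes at 0.5 RPM or less in all 4 earlier libraries, 32 reached 3 RPM in 32-cell Col-0 x Cvi-0 alone and 2 in 32-cell Cvi-0 x Col-0 alone. The same limits define these genes, so the counts describe the choice and add nothing to the ratios above. For comparison, 61 genes were at 0.5 RPM or less in both 1-cell/2-cell libraries and at 3 RPM or more in both 8-cell libraries.

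The balance between alleles was the one read-out of these genes that the choice had not used. A read that covers a base at which Col-0 and Cvi-0 differ can be assigned to 1 accession, and through the direction of the cross to the mother or the father. Of the 18 genes, 7 had 0 such reads at the 32-cell stage (ANT, AT4G37810, AT4G16447, AT1G26920, SK16, PCS1 and AT5G60400), 3 had 1 to 4, 4 had 5 to 19 and 4 had at least 20. Over all of them, 235 reads were maternal and 229 paternal, a maternal share of 50.6%, and AT3G48970 gave 45.7% of these reads. By cross, 164 of 301 reads were maternal in Col-0 x Cvi-0 (54.5%, against 53.5% over all genes) and 71 of 163 in Cvi-0 x Col-0 (43.6%, against 47.1%).

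AT3G48970 had the most allele reads. In Col-0 x Cvi-0 it had 85 Col-0 and 58 Cvi-0 reads, and in Cvi-0 x Col-0 it had 45 and 24, so the Col-0 allele had more reads in both. The maternal share was 51.4% (44.5 to 58.3) and the Col-0 share 61.3% (54.4 to 67.9), read at 7 variant positions. KCS19 had 38 Col-0 and 42 Cvi-0 reads in Col-0 x Cvi-0 and 15 and 19 in Cvi-0 x Col-0, a maternal share of 50% (40.5 to 59.5). For AT2G42660 the reads were 18 and 16, then 14 and 20, a maternal share of 55.9% (43.3 to 67.9). For AT1G47655 they were 5 and 9, then 4 and 5, a maternal share of 43.5% (23.2 to 65.5). Both parental alleles were thus read in each of these 4 genes in both crosses, and each of the 4 intervals of the maternal share pooled over the crosses includes 50%. Within crosses this did not hold for AT3G48970, whose maternal share was 59.4% (50.9 to 67.6) in Col-0 x Cvi-0 and 34.8% (23.7 to 47.2) in Cvi-0 x Col-0, on either side of 50%.

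In the fit of parent to all 7116 genes with enough allele reads, 0.112% of genes were called by edgeR at an adjusted p under 0.05, 7 maternal (0.0984%) and 1 paternal (0.0141%). Without 32-cell Cvi-0 x Col-0 the split was 7 maternal and 8 paternal. Of the 4 genes, 0 were called by edgeR or DESeq2, and 0 had an unadjusted p under 0.05. The log2 ratio of maternal to paternal reads was -0.18 ± 0.68 for AT3G48970, 0.09 ± 0.84 for KCS19, 0.34 ± 1.16 for AT2G42660 and -0.26 ± 1.89 for AT1G47655. The 95% interval of that ratio ran from -1.60 to 1.23 for AT3G48970 and from -4.18 to 3.65 for AT1G47655, and in each of the 4 it included differences of more than 2-fold in either direction. The pooled maternal share of AT3G48970, 51.4%, lies on the other side of equality from its fitted ratio, since the crosses gave unequal numbers of reads (143 and 69). With few or no early allele reads, these genes took nearly all of their spread from other genes.

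Between the accessions, 6.9% of the 7116 genes were called, 351 higher from Col-0 (4.93%) and 140 higher from Cvi-0 (1.97%). With TMM scaling these were 293 and 176. Again 0 of the 4 genes were called, by edgeR or DESeq2. The log2 ratio of Col-0 to Cvi-0 reads was 0.72 ± 0.64 for AT3G48970 (edgeR adjusted p = 0.726), whose counting interval excludes 50% while the fit does not call it. It was -0.25 ± 0.87 for KCS19, -0.17 ± 1.11 for AT2G42660 and -0.57 ± 1.77 for AT1G47655 (edgeR adjusted p = 0.973, 0.989 and 0.968), and 0 of the 4 had an unadjusted p under 0.05.

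Variant positions of 1 gene did not always give the same share. In AT1G47655, 1 position had 3 Col-0 and 14 Cvi-0 reads, and the others had 5 and 1 Col-0 reads with 0 from Cvi-0. In KCS19, 1 position had 2 Col-0 and 12 Cvi-0 reads, while the position with the most reads had 35 and 33. A share over few reads or 1 position is therefore uncertain. Among genes with 5 to 19 allele reads, AT3G06778 had 11 maternal and 6 paternal reads, of which 15 of 17 were from Col-0 (88.2%, 63.6 to 98.5). AT1G65845 had 2 maternal and 9 paternal reads (18.2%, 2.28 to 51.8), WIP5 had 2 and 6, and CLE16 had 5 and 2.

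**Figure D3:**
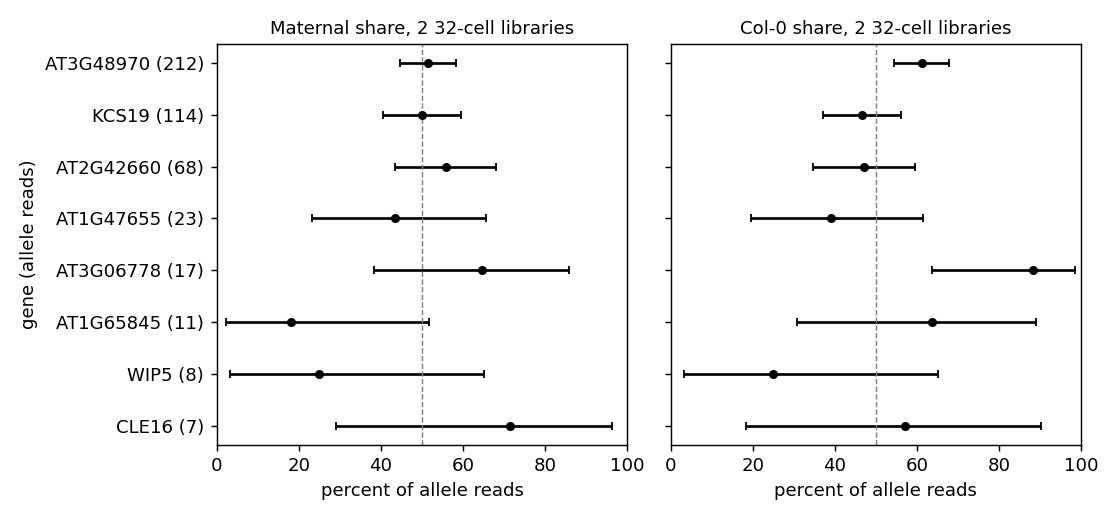
Share of allele reads, in percent, that were maternal (left) and from Col-0 (right) over both 32-cell libraries, for the 8 genes with at least 5 allele reads (rows, reads in brackets). Points are shares, bars are exact Clopper-Pearson 95% intervals for counting error, and the dashed line is at 50%. All 8 intervals of the maternal share include 50%, and those of the Col-0 share do so in 6 genes, all but AT3G48970 and AT3G06778.

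The genes were short, with a median transcript of 1048 bases against 1764 bases for the 12521 annotated genes at 3 RPM or more in both 32-cell libraries. RPM is not scaled by length, so length enters both limits of the choice, and the genes compared were not matched for level. The annotation gives 1 exon for 8 of them (44.4%, against 10.7%), namely CLE16, AT4G16447, AT1G26920, AT1G47655, AT1G78860, KCS19, SK16 and PCS1, and 3 were uncharacterized (16.7%, against 4.46%). They lay on all 5 chromosomes, with 5, 4, 3, 3 and 3 genes on chromosomes 1 to 5. The closest pair was ANT and AT4G37810, 38322 bp apart on chromosome 4. Of the 14 genes for which the annotation names a closest relative, 3 have a relative at 3 RPM or more in both 32-cell libraries, and 3 a relative at 0 in all 6 libraries.

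The 250 bases upstream of each annotated start were read from the TAIR10.1 genome (RefSeq), and 8 motifs were searched on both strands. Letters TATAAA, as in a TATA box, were found in 11 of the 18 windows (61.1%, against 47.3% of 27443 gene windows and 44.9% of the 12391 of genes at 3 RPM). A match on either strand and at any distance from the start within the window was counted. Auxin response letters TGTCTC were in 3 (CLE16, SK16 and AT5G60400, 16.7% against 10.9%) and TGTCGG in 1 (AT4G37810, against 4.16%). The RY letters CATGCA were in 2 (AT1G26920 and AT2G42660, 11.1% against 8.43%). The L1 box TAAATGTA, known from genes of the outer cell layer, was in 1 (PCS1, against 3.0%), and TAAATGCA in 0 (against 1.57%). The G-box CACGTG was in 0 (against 6.49%), and the shorter ACGTG, which lies within it, was in 3 (16.7% against 22.9%). With 18 windows these shares rest on few genes, and a match in letters is a description.

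The windows of the EPIDERMAL PATTERNING FACTOR-like gene and of the 3 genes with the most allele reads are shown, since results above turn on these genes. They lie at chr4:17780479-17780728 on the plus strand (AT4G37810), and on the minus strand at chr3:18153644-18153893 (AT3G48970), chr5:1293724-1293973 (KCS19) and chr2:17768380-17768629 (AT2G42660). Each is written 5′ to 3′ along its gene and ends at the base before the annotated start, and capitals mark the letters of the searched motifs on either strand.
AT4G37810: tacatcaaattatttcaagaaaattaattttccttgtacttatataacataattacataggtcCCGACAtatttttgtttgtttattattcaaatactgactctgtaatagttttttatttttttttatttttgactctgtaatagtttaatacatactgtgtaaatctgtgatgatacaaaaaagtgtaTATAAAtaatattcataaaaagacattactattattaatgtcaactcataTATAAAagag
AT3G48970: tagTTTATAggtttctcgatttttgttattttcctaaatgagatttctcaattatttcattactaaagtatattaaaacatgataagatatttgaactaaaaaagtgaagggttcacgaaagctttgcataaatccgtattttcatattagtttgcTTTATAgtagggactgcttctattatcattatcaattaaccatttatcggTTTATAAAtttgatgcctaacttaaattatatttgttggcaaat
KCS19: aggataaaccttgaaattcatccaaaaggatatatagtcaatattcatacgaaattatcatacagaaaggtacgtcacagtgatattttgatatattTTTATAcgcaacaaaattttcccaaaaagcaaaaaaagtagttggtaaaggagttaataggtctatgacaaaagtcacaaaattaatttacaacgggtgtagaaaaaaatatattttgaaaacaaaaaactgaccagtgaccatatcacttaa
AT2G42660: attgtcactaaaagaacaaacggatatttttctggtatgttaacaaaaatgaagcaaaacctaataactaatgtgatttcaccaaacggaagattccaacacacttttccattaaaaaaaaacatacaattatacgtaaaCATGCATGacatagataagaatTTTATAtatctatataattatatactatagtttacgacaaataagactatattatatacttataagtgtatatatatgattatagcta
In AT4G37810 the capitals are 1 match of TGTCGG on the other strand and 2 of TATAAA, the last of them 10 bases before the start. AT3G48970 has 4 matches of TATAAA, 2 of them overlapping, and only the last lies on the strand of the gene. KCS19 has 1 match of TATAAA and AT2G42660 has 1, both on the other strand. AT2G42660 also has 2 overlapping matches of CATGCA, 1 on each strand.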

How the data were processed

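Poly(A) RNA of 6 pools of embryos was analysed, 1 library per group. Per the series' design text, the authors mapped reads with Bowtie (version not given in the sources used here) to the TAIR10 genome and transcript models and to a copy carrying Cvi-0 variants, and kept perfect and unique matches, so reads with unlisted variants or from near-identical genes are lost. Per the file headers, the authors deposited reads per gene, whose step is 0.5, and these estimated counts were rounded to whole numbers for fits. The deposited allele values are counts of reads over variant positions, and the deposited lists give reads per variant. RPM, per the file headers, was scaled by the authors to each library's matching reads, and is printed as deposited. Another 30 value columns were not used here.

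Locus identifiers linked 23747 of 23874 genes to the annotation of TAIR10.1. Gene reads were fitted in edgeR 4.0.16 (R 4.3.3) with filterByExpr, TMM scaling and glmQLFTest, with stage and cross as terms (biological coefficient of variation 42.9%, 2 residual degrees of freedom). The 12 allele columns were fitted with library, genotype and parent as terms, the total of allele reads as offset, for genes averaging 10 or more allele reads in the 32-cell libraries. Standard errors were taken from each log2 ratio and its F statistic, and the adjusted p threshold was 0.05. The fits were tested on simulated data. DESeq2 1.42.0 was an alternative. Pooled ratios and shares have exact 95% intervals (scipy 1.17.1), and floors are 3 reads.

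The 18 genes, the lists and the families were chosen with earlier results of these data known, and families and relatives after the genes were seen. Full values are given for the 12 genes with the highest mean 32-cell RPM and for transcription factor, signalling and hormone genes, allele reads from 20 reads, the 3 genes nearest each limit on each side, and up to 4 called genes per list. Other genes named, such as family members, were chosen after their values were seen.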

Additional observations from a re-analysis of the deposited data

How the results depend on the processing

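The number of genes depends on the limits. It was 18 as reported, 5 with an earlier ceiling of 0.25 RPM, 35 with 1 RPM, 32 with a 32-cell minimum of 2 RPM, 8 with 5 RPM, and 17 with RPM rescaled to reads over genes, 15 of them shared. Without 1 library it was 19 to 64. Leaving out a library removes a limit of the choice, so the count cannot fall and all 18 genes must remain. Leaving out 8-cell Cvi-0 x Col-0 gave 64, and leaving out 32-cell Cvi-0 x Col-0 gave 50. The 786 stage calls became 2256 with DESeq2, 1709 with no filter beyond 1 read and 401 to 2134 without 1 library, with changes over 1.5 times for each library except 8-cell Cvi-0 x Col-0. The 8 parent calls became 15 and 2 with minimums of 5 and 20 allele reads, 3 with DESeq2, and 6 to 15 without 1 library (13 and 14 without the 1-cell/2-cell libraries, 15 without 32-cell Cvi-0 x Col-0). The 491 genotype calls became 309 with DESeq2, 1383 with 1 effect over all stages and 170 to 760 without 1 library (changes over 1.5 times for each 1-cell/2-cell and 32-cell library). With 1 effect over all stages the log2 ratio changed sign for AT2G42660 (parent -0.02, genotype 0.18) and KCS19 (genotype 0.16), with edgeR adjusted p of 1.0, 0.925 and 0.926. The Col-0 share of AT1G47655 was 17.6% at the variant with the most reads, where its positions disagree. The cause of the other changes was not tested. The allele results rest on few reads over variant positions, with fewer than 20 in 14 of the 18 genes, and genes with many reads can have none (AT5G60400, 534 reads, 0 over variants). No paired analysis of libraries between groups was possible because each group has 1 library and the labels give no replicate numbers to pair by. The allele fits, with library as a term, compared the allele columns of each library within that library. Cross, which is not a replicate number, is a term of the stage fit, and 751 genes were called without it.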
